A study of Mus musculus with 11 samples.

Results

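The genes described here carry out DNA synthesis, supply its nucleotide precursors or govern entry into S phase. They were chosen by symbol, as 37 gene names: the subunits of the replicative DNA polymerases, the sliding clamp and its loader, the single-strand binding complex RPA, Okazaki fragment and fork factors, enzymes of nucleotide synthesis, both E cyclins and E2f1. All 37 were found among the 47517 gene names of the count table, and all 37 passed the filter on low counts that left 15821 genes for testing. The counts come from RNA-seq of forelimb buds of mouse embryos of C57BL/6 strain background at E10.5 (day of embryonic development). The 5 control embryos were Gmnn +/f; Prx-Cre, with 1 floxed and 1 wild-type allele of Gmnn. The 6 mutant embryos were Gmnn f/f; Prx-Cre, with both alleles floxed. Every embryo thus carried at least 1 floxed allele and the Cre transgene, and no library from an embryo without Cre was analysed here. Gmnn encodes Geminin, which binds the licensing factor Cdt1 and blocks a new round of origin licensing once replication has begun. The Prx promoter drives Cre in limb bud mesenchyme, so that ectoderm, endothelium, blood cells and migrating muscle precursors in the same bud are outside its main domain. The embryos came from 4 litters, called A to D here, and both genotypes were present in each. Litter A gave controls 1 and 2 and mutants 1 and 2. Litter B gave control 3 and mutant 6, litter C gave control 4 and mutant 5, and litter D gave control 5 and mutants 3 and 4.

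DNA replication starts when cyclin E with its kinase partner and the E2F transcription factors bring a cell into S phase. E2F factors activate genes whose products are needed at the fork, among them many of those described here. At the fork, polymerase alpha with primase lays down primers, polymerase epsilon extends the leading strand and polymerase delta the lagging strand. PCNA, loaded by replication factor C, tethers the polymerases, and RPA covers the exposed single strands. Flap endonuclease, RNase H2 and DNA ligase finish the Okazaki fragments, and ribonucleotide reductase, thymidylate synthase, dUTPase and thymidine kinase keep up the supply of deoxynucleotides. The mesenchyme of the limb bud proliferates rapidly at this age.

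Promoter sequences are shown for 3 of the members because many genes of DNA replication are E2F targets, and because Ccne1 was higher and Rrm1 and Rrm2 were lower in mutants in all 4 litters. The RefSeq promoter table (build GRCm38.p6, 250 bases before to 50 bases after each start site) held 36 windows for 31 of the 37 members. It held none for Prim2, Pole, Rfc2, Rnaseh2b, Tipin and Ccne2. The core of the E2F site was searched on both strands as TTCCCGC and its variant TTCGCGC, and also as TTGCCGC and the related word TTGGCGC. Matches that overlap each other were counted separately, as in the Rfc1 window. At least 1 match lay in 19 of the 36 member windows (52.8%), belonging to 17 genes, against 3145 of all 32851 windows (9.57%). The bases before the start are printed 5′ to 3′ on the gene's strand, stopping where either RefSeq or the gene model of the count table begins, with matches in capitals. Ccne1 (chr7:38107535-38107740, minus strand, GRCm38.p6) had no match in its window. Rrm1 (chr7:102441445-102441694, plus strand, GRCm38.p6) had 1 match, TTCCCGC, whose first base lies 67 bases before the start. Rrm2 (chr12:24708004-24708240, plus strand, GRCm38.p6) had 1 match, the minus-strand word TTGCCGC, beginning 235 bases before the start.
Ccne1: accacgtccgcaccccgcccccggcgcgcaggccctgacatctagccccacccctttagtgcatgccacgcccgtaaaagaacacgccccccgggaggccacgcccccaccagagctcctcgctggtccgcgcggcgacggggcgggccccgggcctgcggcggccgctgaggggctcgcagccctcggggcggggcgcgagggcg
Rrm1: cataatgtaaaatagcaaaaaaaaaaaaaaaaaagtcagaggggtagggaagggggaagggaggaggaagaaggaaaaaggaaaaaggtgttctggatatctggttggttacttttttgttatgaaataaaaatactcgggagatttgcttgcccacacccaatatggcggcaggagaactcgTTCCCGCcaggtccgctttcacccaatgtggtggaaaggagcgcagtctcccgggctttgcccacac
Rrm2: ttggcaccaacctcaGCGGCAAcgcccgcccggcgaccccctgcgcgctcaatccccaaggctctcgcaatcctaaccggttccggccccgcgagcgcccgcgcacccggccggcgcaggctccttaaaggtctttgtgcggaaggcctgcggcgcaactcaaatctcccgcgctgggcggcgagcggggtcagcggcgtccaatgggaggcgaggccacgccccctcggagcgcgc
A match is a string of letters and not evidence of binding, and its absence from a window says only that these letters are not there. Of the 9 members that were lower in mutants in all 4 litters, 7 had a window and 5 had a match. Of the 4 that were higher in all 4 litters, 3 had a window and 1 had a match. Of the other 24, 21 had a window and 11 had a match.

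Total counts per library ran from 14721181 to 19733288. Levels are given as CPM, the reads of a gene scaled to a common library total. For Gmnn itself the control mean was 179.6 CPM (SD 40.2, n = 5) and the mutant mean 115 CPM (SD 16.1, n = 6). Its fitted level in mutants was 0.629 of that in controls (-0.67 on the log2 scale, adjusted p 0.0291 in edgeR). The forelimb marker Tbx5 was at 75.3 to 123 CPM in controls and 64.8 to 83.7 CPM in mutants, whereas the hindlimb gene Tbx4 reached at most 6.11 CPM in any library. Mutant 5 had 8 Xist reads and 4 Y-linked reads, which matches neither sex, and each of the other 10 libraries matched 1 sex. Control 5 stood apart from the other controls in several of the genes below and in the T-run index. This index is the mean log2 CPM of genes with a run of at least 18 T bases in a transcript minus the mean of genes with runs of at most 5. Control 5 had 1.86 against 2.11 to 2.30 among the remaining controls, and mutant 5 had 2.11 against 1.53 to 1.97 among the remaining mutants. Values without control 5 and without mutant 5 are given where they change a call.

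The comparison of mutant with control buds asks which of these genes differed when both Gmnn alleles were floxed. Of the 37, 2 passed the threshold: Ccne1 rose and Ccne2 fell in mutant buds (quasi-likelihood test in edgeR, blocked by litter, with a Benjamini-Hochberg adjusted p under 0.05 over all 15821 genes). In the background of all genes tested, 2.18% passed, 0.702% as higher and 1.48% as lower in mutants, so that the members' counts of 1 in each direction are near that background. The median log2 fold change was -0.0139 over the members and 0.00382 over all genes. The members' fold changes ran from -0.47 to 0.56 on the log2 scale, with 17 above 0 and 20 below, where all genes gave 50.7% above and 49.3% below. This split depends on the scaling: with upper-quartile scaling, which moved the median of all genes to 0.0426, 22 members were above 0 and 15 below. At an unadjusted p under 0.05 there were 4 higher members, where all genes gave 9.84%, and 9 lower members, where all genes gave 11.5%. In the tested genes as a whole 13.5% were lower and 12.6% higher in all 4 litters, and among the members these numbers were 9 and 4 of 37. The count of 2 called members was 6 (1 higher, 5 lower) without control 5 and stayed at 2 without litter D. It was 1 without mutant 3. It was 0 without any 1 of controls 1 to 4 or mutants 1, 4, 5 and 6. It was also 0 without litter A, B or C, without the litter block and with the T-run index added to the model. It was 8 (2 higher, 6 lower) with DESeq2 and 7 (2 higher, 5 lower) with no filter on low counts, where 1194 and 1566 of all genes passed. Litters B and C hold 1 embryo of each genotype. Leaving out either embryo, or the whole litter, gives nearly the same blocked comparison, so that these are not separate losses.

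**Figure D1:**
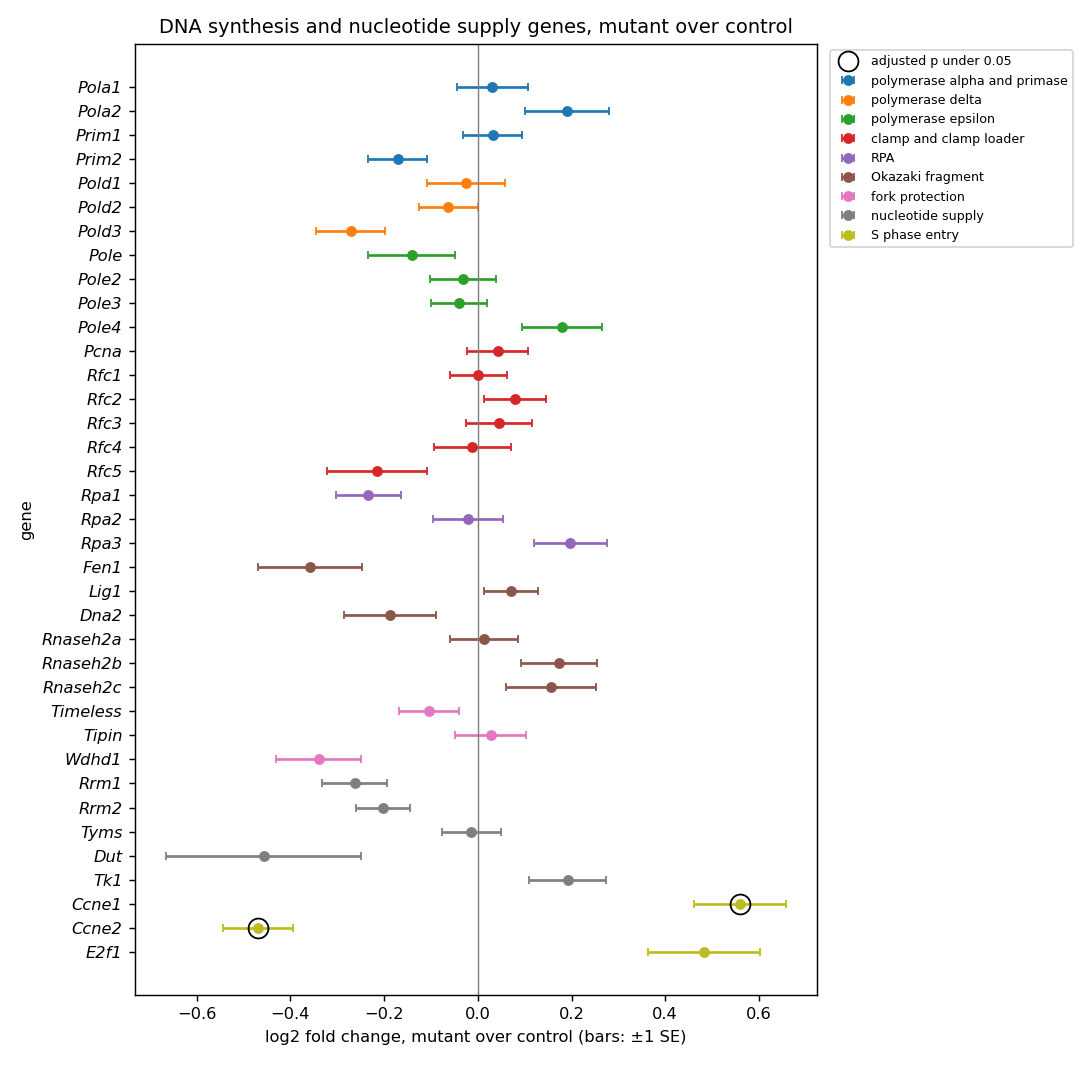
Log2 fold change of each of the 37 genes, mutant over control, with bars of 1 SE and colours by role; circles mark an adjusted p under 0.05. Of the 37 points 16 lie within 0.1 of 0, Ccne1 (0.56) and Ccne2 (-0.47) are circled on opposite sides, and Dut has the widest bar (SE 0.208).

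Precision was enough to bound many of the members. For 18 of them the 95% interval of the fold change lay within 1.25-fold either way, as it did for 24% of all genes. The interval of another 17 that were not called reached beyond 1.25-fold. The median SE of the log2 fold change was 0.0755 over the members and 0.138 over all genes. In bulk RNA of whole buds, fewer cells of a type and less RNA per cell cannot be told apart.

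Of the S phase entry genes, Ccne1 encodes cyclin E1, which activates Cdk2 at the start of S phase (chromosome 7, 38097984 to 38107534, minus strand, mm10). Controls 1 to 5 had 68.2, 66.7, 59.3, 71.4 and 102 CPM, and the mutants had 104 CPM at the lowest, 108 at the median and 121 at the highest. Every mutant lay above every control, although control 5 came close to the lowest mutants; in the background of all genes, 1.29% did not overlap in this direction and 1.3% in the other, where no member was found. The control mean was 73.5 CPM (SD 16.4, n = 5) and the mutant mean 109.5 CPM (SD 6.76, n = 6), a fitted rise of 1.47-fold (0.56 on the log2 scale, SE 0.0986, 95% interval 0.35 to 0.77, adjusted p 0.0353 in edgeR). Within litters A to D the mutant was higher by 0.63, 0.91, 0.66 and 0.14 on the log2 scale. The longest T run in its transcripts is 25 bases, and the fold change was 0.42 with the T-run index in the model (adjusted p 0.296 in edgeR).

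Ccne2 encodes cyclin E2, which binds the same kinase (chromosome 4, 11191351 to 11204779, plus strand, mm10). Controls 1 to 5 had 76.3, 69.8, 69.7, 78.8 and 58.7 CPM, and the mutants had 44.4 CPM at the lowest, 47.2 at the median and 64.3 at the highest. Only mutant 5, the highest mutant, lay above the lowest control, which was control 5. The control mean was 70.6 CPM (SD 7.80, n = 5) and the mutant mean 50.1 CPM (SD 7.47, n = 6), a fall to 0.722 of the control level (-0.47 on the log2 scale, SE 0.0755, 95% interval -0.63 to -0.31, adjusted p 0.0291 in edgeR). It was lower in each litter, by -0.59, -0.56, -0.29 and -0.36. Exons of Ints8 on the opposite strand cover 17.4% of its exon bases, and the counts do not use strand. Reads over exons of both genes are left out by the counting tool's default, so that the count of Ccne2 rests on the remaining bases. Ints8 had 0.26 on the log2 scale (adjusted p 0.0960 in edgeR). Adding the T-run index to the model left Ccne2 at -0.29 (adjusted p 0.251 in edgeR).

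Both cyclin calls were lost without the litter block or without some of the single libraries, and so were most calls over all genes. Where a cyclin call was lost in this way, 1 to 15 of all genes passed, against 345 in the main fit. Without the block the adjusted p was 0.0549 for each gene in edgeR. Ccne1 passed without control 5, mutant 2 or mutant 3. Its edgeR adjusted p was 0.0697, 0.0769, 0.172 and 0.0598 without control 1, 2, 3 or 4, and 0.0913, 0.0631, 0.0603 and 0.176 without mutant 1, 4, 5 or 6. Ccne2 passed without control 5 or mutant 2. Its edgeR adjusted p was 0.0570, 0.0696, 0.145 and 0.0572 without control 1, 2, 3 or 4, and 0.0752, 0.0593, 0.0626, 0.0569 and 0.145 without mutant 1, 3, 4, 5 or 6. The direction was the same in all 24 alternatives for both genes, with log2 fold changes of 0.42 to 0.71 for Ccne1 and -0.51 to -0.29 for Ccne2. Not all of the 24 are separate: without control 3, mutant 6 or litter B, Ccne1 had 0.484 each time.

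The balance of the E cyclins was set out on a scale corrected for exon length (FPKM, CPM divided by exon length in kilobases). For Ccne2 this length includes the bases shared with Ints8, where reads are left out, which lowers its FPKM in both groups. The level of Ccne1 was 1.17, 1.25, 1.12, 1.19 and 2.28 times that of Ccne2 in controls 1 to 5, and 2.30 times at the lowest, 2.97 at the median and 3.57 at the highest in mutants. Every mutant ratio lay above every control ratio, and control 5 stood next to the lowest mutant, which was mutant 5. The summed level of both cyclins was 42.2 to 55.0 FPKM in controls and 52.2 to 60.8 FPKM in mutants, so that the sums overlapped. The pair was chosen for these ratios after both calls were known, and the ratios are a description.

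E2f1 encodes the transcription factor that activates S phase genes (chromosome 2, 154559407 to 154569892, minus strand, mm10), and it had the next smallest p. Controls 1 to 5 had 14.7, 21.6, 16.6, 16.7 and 16.4 CPM, and the mutants 19.3 CPM at the lowest, 23.2 at the median and 30.6 at the highest. The groups overlapped only through control 2, which stood above the 2 lowest mutants. Mutants were higher by 0.48 on the log2 scale (SE 0.120, adjusted p 0.0546 in edgeR), with values above 0 in all 4 litters. The gene missed the threshold, but passed it with DESeq2 (adjusted p 0.00841), limma-voom (adjusted p 0.0498), a filter of 1 CPM (edgeR adjusted p 0.0473) and no filter (edgeR adjusted p 0.00326). With the T-run index in the model E2f1 had 0.22 (edgeR adjusted p 0.623), and without litter A it had 0.37 (edgeR adjusted p 0.208). With any 1 library left out, its edgeR adjusted p was 0.0627 to 0.203.

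**Figure D2:**
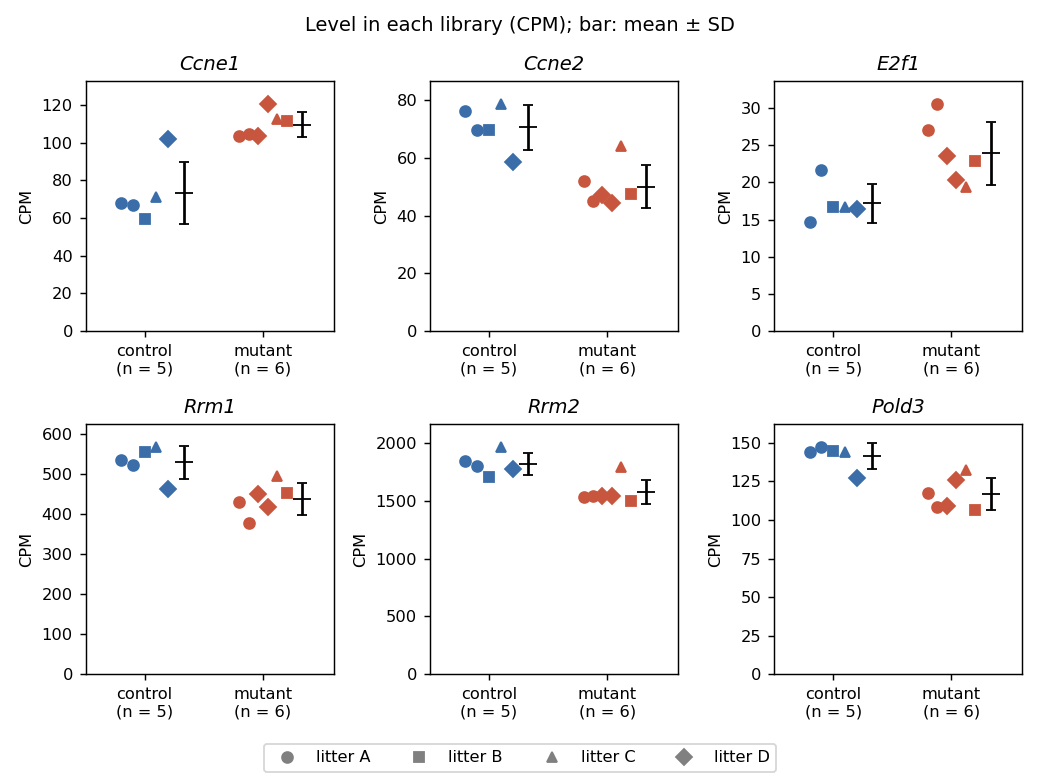
CPM of 6 genes in each library, with controls in blue, mutants in red, a symbol for each litter and the mean ± SD beside the points. The mutants of Ccne1 (104 to 121) lie above all controls, and the control 5 diamond sits nearest to them; in Rrm2 the mutant 5 triangle (1788) stands above the other mutants.

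Among the 5 nucleotide supply genes none passed the threshold, and 4 had fold changes below 0. Rrm1 and Rrm2 encode the large and the small subunit of ribonucleotide reductase, which makes deoxynucleotides from ribonucleotides. Rrm1 (chromosome 7, 102441695 to 102469771, plus strand) had 537, 524, 555, 569 and 465 CPM in controls 1 to 5, and 378 CPM at the lowest, 441 at the median and 495 at the highest in mutants. Mutant 5 stood above control 5, and no other pair of libraries crossed between the groups. Its fitted difference was -0.26 on the log2 scale (SE 0.0695, adjusted p 0.0644 in edgeR), with values below 0 in all 4 litters. Its longest T run is 23 bases, and the value was -0.10 with the T-run index in the model. Without control 5 it was -0.32 (edgeR adjusted p 0.0373), which passed, but it did not pass without litter D. Rrm1 also passed with DESeq2 (adjusted p 0.00969) and with no filter on low counts (edgeR adjusted p 0.0128).

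Rrm2 (chromosome 12, 24708241 to 24714146, plus strand) had the highest level of all members. It stood at 1841, 1802, 1705, 1963 and 1769 CPM in controls 1 to 5, and at 1499 CPM at the lowest, 1541 at the median and 1788 at the highest in mutants. Mutant 5 alone reached into the control range. The control mean was 1816 CPM (SD 96.1, n = 5) and the mutant mean 1574 CPM (SD 106, n = 6), which is -0.20 on the log2 scale (SE 0.0576, adjusted p 0.0782 in edgeR). The litters gave similar differences, -0.25, -0.19, -0.14 and -0.20. DESeq2 called Rrm2 (adjusted p 0.00650), and with the T-run index in the model it had -0.18 (edgeR adjusted p 0.267). Per exon length, Rrm2 was 4.43 to 5.49 times Rrm1 in controls and 4.75 to 5.90 times in mutants, and the ranges overlapped. Rrm2 alone made up 22.2% to 24.2% of the summed member CPM in controls and 20.1% to 23.2% in mutants.

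Tyms, thymidylate synthase, had a control mean of 577 CPM (SD 12.5, n = 5) and a mutant mean of 574 CPM (SD 33.7, n = 6), and its 95% interval ran from -0.15 to 0.12 around a log2 fold change of -0.01. Tk1 encodes the cytosolic thymidine kinase of the salvage pathway (chromosome 11, 117815526 to 117826092, minus strand). It had 169, 184, 153, 183 and 201 CPM in controls 1 to 5, and 181 CPM at the lowest, 206 at the median and 237 at the highest in mutants. The ranges overlapped, and the log2 fold change was 0.19 (SE 0.0822, edgeR adjusted p 0.208). Dut, the dUTPase that keeps uracil out of DNA, had the largest SE of the members. Controls had 236 to 311 CPM and mutants 118 to 340.3 CPM, so that mutants lay on both sides of the controls. Its log2 fold change was -0.46 (SE 0.208, edgeR adjusted p 0.230), with litter differences of -0.66, -1.17, 0.31 and -0.38. Without control 3 or without mutant 6, the libraries of litter B, it was -0.29, and without any other single library it lay between -0.64 and -0.31. It passed when no filter on low counts was used (-0.46, adjusted p 9.91e-07 in edgeR), and the value was 0.06 with the T-run index in the model.

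In the complex of polymerase alpha and primase, the catalytic primase subunit Prim1 had 176, 171, 179.7, 172 and 167 CPM in controls 1 to 5, and 158 CPM at the lowest, 174 at the median and 192 at the highest in mutants. The mutants spread to either side of the controls (log2 fold change 0.03, 95% interval -0.10 to 0.17). Prim2, the regulatory primase subunit (chromosome 1, 33453810 to 33669795, minus strand), had 111, 117, 129, 142 and 115 CPM in controls, and 91.9 CPM at the lowest, 109.6 at the median and 127 at the highest in mutants. Its groups overlapped broadly, yet it was lower in all 4 litters (log2 fold change -0.17, SE 0.0624, edgeR adjusted p 0.148). The longest T run in its transcripts, 26 bases, is the longest among the members. Pola1, the catalytic subunit of polymerase alpha, had a log2 fold change of 0.03, and Pola2, its accessory subunit, 0.19 (edgeR adjusted p 0.243).

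In polymerase delta, Pold3, an accessory subunit that binds PCNA (chromosome 7, 100082111 to 100121565, minus strand), had 144, 147, 145, 144 and 127 CPM in controls 1 to 5. The mutants had 107 CPM at the lowest, 114 at the median and 132 at the highest. Control 5 was low among the controls, and mutant 5 alone stood above it. Pold3 had -0.27 on the log2 scale (SE 0.0737, adjusted p 0.0682 in edgeR) and was below 0 in all 4 litters. Without control 5 it was -0.32 (edgeR adjusted p 0.0441), which passed, but it did not pass without litter D. Pold3 also passed with DESeq2 (adjusted p 0.0183) and with no filter on low counts (edgeR adjusted p 0.0232). With the T-run index in the model it was -0.15 (edgeR adjusted p 0.56). Pold2, another accessory subunit, had 91.7, 94.0, 72.0, 79.1 and 105 CPM in controls, and 68.6 CPM at the lowest, 90.5 at the median and 95.8 at the highest in mutants. The libraries of litters B and C had 68.6 to 79.1 CPM and those of litters A and D 87.5 to 105 CPM, in both genotypes. Its genotype log2 fold change was -0.06, and that of Pold1, the catalytic subunit, was -0.03.

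No subunit of polymerase epsilon was called. Pole3, a small histone-fold subunit, had 159, 176, 158, 162 and 183 CPM in controls 1 to 5, and 148 CPM at the lowest, 169 at the median and 177 at the highest in mutants. The groups overlapped, with a log2 fold change of -0.04 (95% interval -0.17 to 0.09). The catalytic subunit Pole had -0.14 (edgeR adjusted p 0.414), Pole2 had -0.03 and Pole4, the partner of Pole3, had 0.18 (edgeR adjusted p 0.249).

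The clamp PCNA, the ring that slides along DNA with the polymerases, is encoded by Pcna, with a control mean of 271 CPM (SD 11.4, n = 5) and a mutant mean of 282 CPM (SD 21.1, n = 6). Its log2 fold change was 0.04 (95% interval -0.10 to 0.19). Rfc4, a small subunit of the loader, had 307, 319, 332, 348 and 350.5 CPM in controls 1 to 5, and 293 CPM at the lowest, 334 at the median and 388 at the highest in mutants. Its group means were the same, 331 CPM, and its log2 fold change was -0.01 (95% interval -0.19 to 0.17). The large subunit Rfc1 was at 0.0012, Rfc2 at 0.08 and Rfc3 at 0.05. Rfc5 had the lowest value of the loader, -0.22 (SE 0.107, edgeR adjusted p 0.268), from litter differences of -0.17, -0.60, 0.20 and -0.32. None of the 6 genes of this role had an unadjusted p under 0.05. Exons of other genes on the opposite strand cover 15.1% of the exon bases of Rfc2, 12.7% of Rfc4 and 10.7% of Rfc5.

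The subunits of the RPA heterotrimer had values on both sides of 0. Rpa1, the large DNA-binding subunit (chromosome 11, 75298166 to 75348324, minus strand), had 278, 253, 273, 262 and 217 CPM in controls 1 to 5, and 202 CPM at the lowest, 217 at the median and 229 at the highest in mutants. Control 5 stood among the mutants and the other 4 controls above them all. Rpa1 had -0.23 on the log2 scale (SE 0.0686, adjusted p 0.0855 in edgeR), and -0.30 without control 5 (edgeR adjusted p 0.0363), which passed. It also passed with DESeq2 (adjusted p 0.026), but not without litter D. With the T-run index in the model Rpa1 had -0.08 (edgeR adjusted p 0.679). Rpa2, the middle subunit, had -0.02 (95% interval -0.18 to 0.14). Rpa3, the small subunit (chromosome 6, 8255936 to 8259173, minus strand), had 107, 111, 99.9, 104 and 114 CPM in controls 1 to 5, and 108 CPM at the lowest, 121 at the median and 149 at the highest in mutants. It overlapped between the groups and was higher in all 4 litters (log2 fold change 0.20, SE 0.0786, edgeR adjusted p 0.179). Rpa3 had 0.01 with the T-run index in the model. A difference between subunits was not tested.

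Among the Okazaki fragment genes, Fen1 encodes the flap endonuclease (chromosome 19, 10199132 to 10204169, minus strand). It had 20.5, 17.7, 18.9, 19.5 and 22.0 CPM in controls 1 to 5, and 11.5 CPM at the lowest, 16.5 at the median and 17.8 at the highest in mutants. The highest mutant exceeded the lowest control by less than 1 CPM. Fen1 had -0.36 on the log2 scale (SE 0.112, adjusted p 0.100 in edgeR). Exons of Tmem258 and Gm10143 on the opposite strand cover 84.2% of its exon bases, and reads over exons of several genes are left out by the counting tool's default, so that the count of Fen1 rests on the remaining bases. Rnaseh2c, a subunit of RNase H2, had 95.1, 89.4, 83.8, 74.9 and 99.9 CPM in controls, and 74.5 CPM at the lowest, 95.5 at the median and 129 at the highest in mutants. Its log2 fold change of 0.16 (edgeR adjusted p 0.378) came from litters that pointed both ways, with 0.43, -0.17, 0.23 and -0.07. Exons of Kat5 on the opposite strand cover 24.8% of its exon bases, and exons of other genes cover 14.7% of those of Rnaseh2a. Rnaseh2a, the catalytic subunit, had 0.01 and Rnaseh2b 0.17. Lig1, the ligase that seals the fragments, had 0.07 (95% interval -0.06 to 0.20), and the nuclease and helicase Dna2 had -0.19 (edgeR adjusted p 0.298).

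In fork protection, Timeless and Tipin form the complex that steadies the fork, and Wdhd1 (And-1) links the helicase to polymerase alpha. Tipin had 325, 387, 340.4, 361 and 401 CPM in controls 1 to 5, and 337 CPM at the lowest, 374 at the median and 419.7 at the highest in mutants, with broad overlap (log2 fold change 0.03, 95% interval -0.14 to 0.19). Timeless had -0.10 (edgeR adjusted p 0.373). Wdhd1 (chromosome 14, 47240944 to 47276857, minus strand) had 88.4, 82.2, 89.9, 98.2 and 64.6 CPM in controls, and 53.1 CPM at the lowest, 66.0 at the median and 78.1 at the highest in mutants. Control 5 was the only control within the mutant range. Wdhd1 had -0.34 on the log2 scale (SE 0.0906, adjusted p 0.0665 in edgeR), with litter differences of -0.51, -0.42, -0.33 and -0.03. Without control 5 it was -0.44 (edgeR adjusted p 0.0254), which passed, but it did not pass without litter D. Wdhd1 also passed with DESeq2 (adjusted p 0.0127) and with no filter on low counts (edgeR adjusted p 0.00503). Its longest T run is 23 bases, and it had -0.07 with the T-run index in the model.

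Genes with long runs of T in their transcripts had lower fold changes than others. The 959 genes with a T run of at least 18 bases had a median log2 fold change of -0.20, and the 4 members among them, Prim2, Wdhd1, Rrm1 and Ccne1, had a median of -0.22. Ccne1 alone of the 4 lay above 0. Over the 4232 genes with runs of up to 5 the median was 0.06, and over 8 such members it was -0.02. With the T-run index in the model no member passed, and the median of the members was -0.0708, with 12 above 0 and 25 below. The index is lower in most mutants than in most controls, so that it and the genotype overlap in this design, and its part in the results was not tested beyond that fit.

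The differences were not of the same size in every litter. The median difference over the 37 genes was 0.0374 in litter A, -0.0155 in litter B, -0.0632 in litter C and -0.0309 in litter D, and over all genes it lay between -0.0103 and 0.00579. Prim2, Pold3, Rpa1, Fen1, Timeless, Wdhd1, Rrm1, Rrm2 and Ccne2 were lower in every litter, and Rpa3, Rnaseh2b, Ccne1 and E2f1 were higher in every litter. No member had a genotype difference that passed a test of genotype by litter, and neither did any gene of the 15821 (0% called, edgeR). That model has only 3 residual degrees of freedom. At an unadjusted p under 0.05 it held 1 member, Ccne1 (p 0.0275, edgeR adjusted p 0.950), and 3.82% of all genes. DESeq2 and limma-voom called no member in that test. Between litters no member passed in edgeR or limma-voom and 1 did in DESeq2 (in edgeR 0.0885% of all genes passed). Of the members, 6 had an unadjusted p under 0.05 for litter, against 13.5% of all genes, and the smallest belonged to Pold2 (p 0.00109, edgeR adjusted p 0.117).

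**Figure D3:**
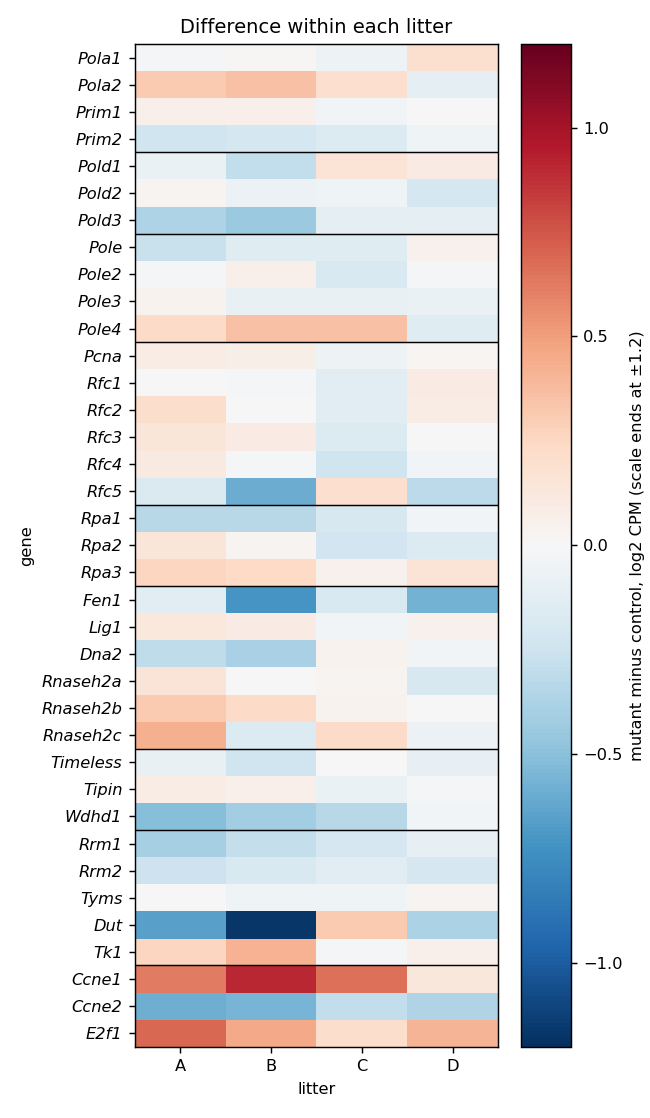
Difference of mutant minus control within each of the 4 litters (log2 CPM) for the 37 genes in order of role, with lines between roles, red for higher and blue for lower in mutants. Ccne1 and E2f1 are red and Ccne2, Rrm1 and Rrm2 blue in every column, the deepest blue is Dut in litter B (-1.17), and most polymerase and clamp loader rows are pale.

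Levels per exon length spanned a wide range. Rrm2 led at 655 FPKM in controls and 568 FPKM in mutants. Tipin (299.6 and 309.6 FPKM), Rfc4 (216 FPKM in both groups), Rrm1 (133 and 109.6 FPKM), Dut (115 and 85.9 FPKM) and Pcna (113 and 118 FPKM) followed. At the low end stood Pola1 (4.16 and 4.23 FPKM), Dna2 (4.60 and 4.06 FPKM), Pole (4.83 and 4.39 FPKM) and E2f1 (5.45 and 7.59 FPKM). Within complexes the levels were uneven: the catalytic subunit Pole was far below its partner Pole3 (82.1 FPKM in controls), and Rfc5 (18.1 FPKM in controls) far below Rfc4. FPKM divides by the summed exon length of each gene model, which is longer than most single transcripts, and no error between genes was modelled. The members together took 0.764% to 0.810% of all counts in controls and 0.730% to 0.765% in mutants. Their summed level was 7666 to 8125 CPM in controls and 7161 to 7690 CPM in mutants, with Rrm2 as the largest single share.

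**Figure D4:**
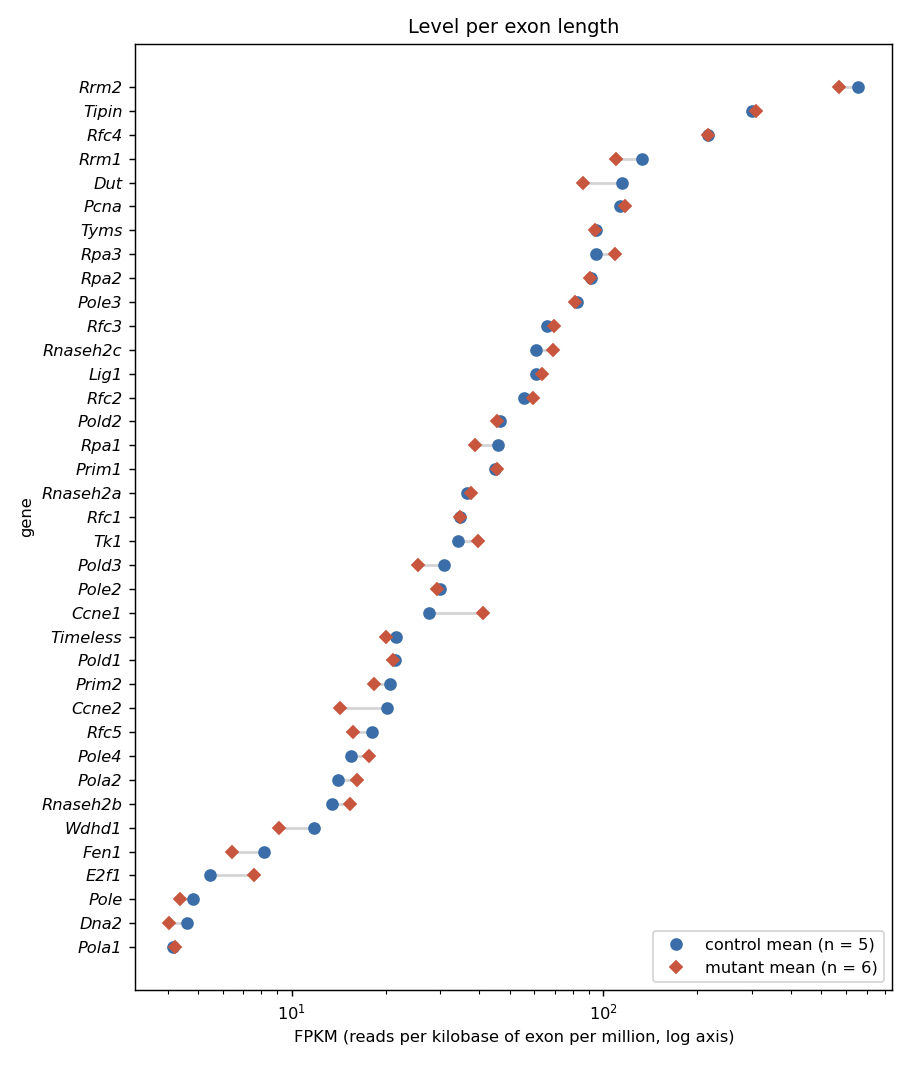
Mean level of each gene per exon length (FPKM, log axis) in controls (blue circles) and mutants (red diamonds), ordered by the control level. Rrm2 stands highest (655 and 568), Pola1 lowest (4.16 and 4.23), and Ccne1 moves from 27.6 to 41.1 and Ccne2 from 20.2 to 14.3.

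Other genes of the pathway were counted from lists that were chosen with earlier results of these data known. Of 23 other replisome and replication chromatin factors none was called (median log2 fold change -0.0136). At an unadjusted p under 0.05 there were 1 higher and 3 lower, and DESeq2 called 3. The smallest edgeR adjusted p belonged to the helicase Pif1 (-0.47, adjusted p 0.0671) and the histone mRNA binding protein Slbp (-0.22, adjusted p 0.0748). Of 27 other nucleotide supply genes 2 were called, both lower (median -0.0389), and 3 were higher and 4 lower at an unadjusted p under 0.05. Dck, the deoxycytidine kinase of the salvage pathway, fell by 0.37 on the log2 scale (control mean 73.3 CPM, SD 9.51, n = 5; mutant mean 55.3 CPM, SD 8.79, n = 6; adjusted p 0.0406 in edgeR). Pfas, an enzyme of purine synthesis, fell by 0.68 on the log2 scale (control mean 1025 CPM, SD 163, n = 5; mutant mean 631 CPM, SD 186, n = 6; adjusted p 0.0495 in edgeR), and it carries a T run of 28 bases. Of 20 other S phase entry genes 1 was called, Cdc25a, the phosphatase that activates Cdk2. It rose by 0.31 on the log2 scale (control mean 68.1 CPM, SD 5.20, n = 5; mutant mean 84.6 CPM, SD 3.16, n = 6; adjusted p 0.0475 in edgeR), and its groups did not overlap. In that list 5 were higher and 3 lower at an unadjusted p under 0.05. None of the 6 Mcm helicase genes was called (median -0.0604), and 1, Mcm4, was lower at an unadjusted p under 0.05. Of 10 origin firing genes 1 was called, Cdc7, a kinase that triggers firing, which fell by 0.57 on the log2 scale (adjusted p 0.0406 in edgeR; list median 0.0433). Of 20 genes of mitosis and G2 1 was called, Prc1, a microtubule bundler of the spindle midzone, which fell by 0.47 on the log2 scale (adjusted p 0.0406 in edgeR). This list had a median of -0.119, with 8 of 20 lower and 0 higher at an unadjusted p under 0.05, where all genes gave 11.5% lower and 9.84% higher. In every litter 11 of the 20 were lower, where all genes gave 13.5%. The groups did not overlap in 3, all lower in mutants, where all genes gave 1.3%. DESeq2 called 6, all lower, where it called 1194 of all 15821 genes, 781 of them lower. Without the litter block none of the genes on these lists was called.

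Markers of the mesenchyme and of other cells of the bud were summed in each library. Of 10 limb mesenchyme markers 9 were tested and 1 was called lower (Lhx9). The median log2 fold change of the 9 was 0.00185, with 4 higher and 2 lower at an unadjusted p under 0.05. Their summed level was 707 to 939 CPM in controls and 718 to 819 CPM in mutants. None of the 10 macrophage markers was called, C1qa was at 0 in 1 control, and their median log2 fold change was 0.764 (4 higher and 0 lower at an unadjusted p under 0.05), with sums of 9.46 to 45.7 CPM in controls and 19.2 to 65.8 CPM in mutants. Of 8 markers in the muscle precursor list 2 were called lower in edgeR, Acta1 and Myl1, which encode contractile proteins, whereas DESeq2 called 1 higher and 1 lower. Their median log2 fold change was -1.51, with 5 lower and 1 higher at an unadjusted p under 0.05. They summed to 42.7 to 98.7 CPM in controls and 38.5 to 74.2 CPM in mutants, and Myod1 was at 0 in libraries of both groups. Red blood cell markers summed to 10210 to 25130 CPM in controls and 12220 to 42560 CPM in mutants, with none of 10 called. Their median log2 fold change was 0.315, with 8 above 0 and 2 below, and none had an unadjusted p under 0.05. Endothelial markers (198 to 308 CPM in controls and 191 to 295 CPM in mutants) and surface ectoderm markers (169 to 313 CPM in controls and 184 to 315 CPM in mutants) had none called, and neither had the 4 neural crest and Schwann precursor markers tested (7.94 to 18.6 CPM in controls and 5.95 to 12.4 CPM in mutants, median -0.53, with 2 lower at an unadjusted p under 0.05). The part of these cells in the differences above was not tested.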

How the data were processed

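RNA was taken from forelimb buds, depleted of ribosomal RNA and sequenced, and samples of low RNA integrity were rejected, per the labels. What the authors deposited is a table of raw counts, 1 row for each gene name. The authors made them with featureCounts 1.4.6-p4 on mm10 with the GENCODE M9 annotation and a minimum mapping quality of 10, per the file headers. STAR 2.5.4b is named in the submitters' processing notes. The header command sets no option for strand, read pairs, or overlapping or multi-mapping reads, so that reads were counted without strand. It lists 12 alignment files. The 11 columns of the table were matched to samples by title, and no other library was analysed here. Of the 47517 gene names, 27 have the form of a date and 2 are repeated.

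Groups came from the genotype labels and litters from the titles. Counts were analysed in R 4.3.3 with edgeR 4.0.16, limma 3.58.1 and DESeq2 1.42.0. Genes were kept by filterByExpr, which left 15821 genes with 99.9% of the counts, and libraries were scaled by TMM. The test was the two-sided quasi-likelihood F test on litter plus genotype, and p-values were adjusted by Benjamini-Hochberg over the 15821 genes, with 0.05 as threshold. The residual degrees of freedom were 6, and the biological coefficient of variation was 16.3%. Fold changes are mutant over control, their SE and 95% intervals come from the same test, CPM use the TMM-scaled totals, and a prior count of 2 went into log2 CPM. Litter and genotype by litter were tested on their 3 coefficients together. Total counts of 14721181 to 19733288 limit the precision of low genes. Library preparation without molecular identifiers means that reads are not all independent molecules.

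The litter number pairs embryos, per the titles and the design text. Deviations of libraries from their group means were correlated across genes for pairs of a control and a mutant. They correlated at -0.16 to 0.37 (median 0.13) over 8 such pairs from the same litter. Over 22 such pairs from different litters the range was -0.33 to 0.17 (median -0.02). No libraries of a group were alike within sampling noise: over 25 pairs, chi-square divided by its degrees of freedom was at least 7.38. On simulated counts for the genotype comparison with 15313 genes, 99% of 100 genes changed by 1 on the log2 scale and 100% of 100 changed by 2 were recovered, with 2.93% of calls false. The simulated counts had the same dispersion for all genes and no litter effect, and genes with few reads were not changed. The largest fold change of a member, 0.56 on the log2 scale, is smaller than those simulated. These rates therefore do not measure recovery or false calls for differences of the members' size.

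The members and gene lists were chosen with earlier results of these data known. All members are named. Values in each control, and the lowest, median and highest mutant, are given for the 12 members with the smallest p and for the member with the highest level per length in each of 9 roles. Among the other replisome, nucleotide supply and S phase entry genes, those past the threshold are named, or the 2 with the smallest p where none passed. Genes named from the remaining lists were chosen after their values were seen. T runs and exon overlap were taken from GENCODE M21 and promoters from RefSeq (GRCm38.p6). The alternatives were RLE scaling, scaling by the upper quartile, testing without a filter, a filter of 1 CPM in 5 libraries, DESeq2, limma-voom, no litter block, each library or litter left out, counts with haemoglobin, ribosomal RNA and mitochondrial genes taken out, and the T-run index added to the model. The motif and the T-run classes were chosen after the fold changes were known.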

Additional observations from a re-analysis of the deposited data

Results flagged for a closer look

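Within a genotype, 1 library stood apart from the others by Dixon's criterion in 4 of the 74 groups of libraries checked (37 genes in each genotype), and chance alone would mark about 1 group in 20. Pold3 was at 127 CPM in control 5, below the other controls at 144 to 147 CPM. Ccne1 was at 102 CPM in control 5, above the other controls at 59.3 to 71.4 CPM. Rrm2 was at 1788 CPM in mutant 5, above the other mutants at 1499 to 1544 CPM. E2f1 was at 21.6 CPM in control 2, above the other controls at 14.7 to 16.7 CPM.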

How the results depend on the processing

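Over the 24 alternatives and 37 genes, 783 log2 fold changes kept direction and side of the threshold, 27 lost the call (Ccne1 and Ccne2), 17 gained it (Pold3, Rpa1, Wdhd1, Rrm1, Rrm2, Dut and E2f1) and 61 turned sign in 19 genes, none of them called in any alternative except Dut. The cause of these changes was not tested, except that a library or litter left out also leaves fewer samples. In litters B and C, leaving out either library or the whole litter is nearly the same comparison, yet each is counted here. The 345 genes called were 1566 without the filter, 550 with a filter of 1 CPM in 5 libraries, 1194 with DESeq2, 13 without the litter block (no replicate block), 9, 3, 1 and 148 without litter A, B, C or D, 2 with the T-run index added to the model, and 1 to 850 with 1 library left out. The 2 members called were 7 without the filter, 8 with DESeq2, 0 without the block, 0 without litter A, B or C, 0 with the T-run index, and 0 to 6 with 1 library left out. With the T-run index the median of the members was -0.0708. With upper-quartile scaling it was 0.0255, against -0.0139. Without the filter 3 members were called between litters and 1 for genotype by litter, and with DESeq2 1 between litters. In the lists, DESeq2 called 3 other replisome genes, 2 S phase entry genes, 6 genes of mitosis and G2 and 2 macrophage markers. Without the block 0 were called in nucleotide supply, S phase entry, origin firing, mitosis and G2, limb mesenchyme and muscle precursors.

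Values that turned sign were within 0.1 of 0, apart from some of those with the T-run index. With upper-quartile scaling Pold1 had 0.0122, Pole2 0.00707, Rfc4 0.0284, Rpa2 0.0186 and Tyms 0.0255. Rfc1 had -0.00438 without the filter and -0.00343 without mitochondrial, haemoglobin and ribosomal RNA genes, and Rfc4 had 8.97e-05 without the block. Without litter A, Pold1 had 0.00198, Rfc1 -0.00422, Rfc2 -0.00236, Rfc3 -0.0178, Rnaseh2a -0.07, Rnaseh2c -0.00866 and Tipin -0.00936. Without litter B, Pold1 had 0.0384. Without litter C, Pole2 had 0.00596, Rfc4 0.0443 and Rpa2 0.0302. Without litter D, Pola1 had -0.0216, Rfc1 -0.0315 and Rpa2 0.0294. With the T-run index, Prim1 had -0.0354, Pold1 0.172, Pole 0.104, Pcna -0.0853, Rfc2 -0.0197, Rfc3 -0.122, Dna2 0.00525, Rnaseh2a -0.168, Rnaseh2b -0.0598, Rnaseh2c -0.00528, Tipin -0.154, Dut 0.0619 and Tk1 -0.0169. With 1 library left out, values ran from -0.022 to 0.0628 for Pola1, -0.00256 to 0.0563 for Prim1, -0.0689 to 0.0385 for Pold1, -0.0657 to 0.00434 for Pole2, -0.00782 to 0.0757 for Pcna, -0.0318 to 0.0349 for Rfc1, -0.013 to 0.094 for Rfc3, -0.0967 to 0.0427 for Rfc4, -0.0818 to 0.0289 for Rpa2, -0.0414 to 0.0849 for Rnaseh2a, -0.0332 to 0.066 for Tipin and -0.0553 to 0.0218 for Tyms.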
